A study of Homo sapiens with 12 samples.

Results

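The genes described here are 40 named genes of glycolysis and of the response to low oxygen, taken by symbol from a table of 60671 genes. Each symbol matched 1 row. The 40 comprise 15 glycolytic enzymes, 2 PFKFB enzymes that set the level of the phosphofructokinase activator, and 4 enzymes of pyruvate and lactate. They also hold 4 glucose or lactate transporters, 10 hypoxia targets outside glycolysis and 5 subunits or prolyl hydroxylases of HIF, the hypoxia-inducible factor. RNA was sequenced from LS180, a long-established cell line from a human colorectal carcinoma. LS180 cells carried doxycycline-inducible GFP, SOX9 or M303, a truncated SOX9, here called the GFP, SOX9 and M303 lines, and the labels name no low-oxygen treatment. Whether a line was 1 clone or a pool is not given in the sources used here. Each line was sampled without doxycycline and after 24 h with 0.5 µg/ml of it, giving 6 groups of 2 libraries and 12 libraries in all. GFP with doxycycline is thus the control for the drug, and the uninduced libraries of each line are the control for its construct. The labels do not state that duplicates were grown apart, so every p-value here reflects library-to-library spread that may be purely technical.

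Glycolysis splits glucose into pyruvate, and lactate dehydrogenase turns pyruvate into lactate, which leaves the cell through monocarboxylate transporters. When oxygen is low, prolyl hydroxylases no longer mark the HIF alpha subunits for destruction, and HIF pairs with ARNT on a short DNA core to raise the transcription of glycolytic and other genes. Tumour cells often run glycolysis with oxygen present, and SOX9 is known in the intestinal crypt, where stem and Paneth cells use it to control transcription.

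Library totals ran from 31012775 to 48529770 counts, and 18219 genes passed the filter on low counts. As a check of the labels, SOX9, which pools endogenous and construct transcripts, stood at 356.8 and 380.6 CPM, that is counts scaled to library size, without and 711.3 and 760.4 CPM with doxycycline in the SOX9 line, and at 398.6, 366.5 and then 818.0, 866.6 CPM in the M303 line. It rose by 1.00 on the log2 scale (SE 0.0738, adjusted p = 4.11e-08, edgeR quasi-likelihood test) in the former and by 1.14 (SE 0.0740, adjusted p = 2.84e-08) in the latter. In the GFP line SOX9 stood at 398.8 and 392.3 CPM without and 404.6 and 370.6 CPM with doxycycline. All 12 colorectal epithelial markers were above 1 CPM, all 6 endothelial markers were below it, and fibroblast markers summed to at most 0.000297% of counts. Of 8 blood and immune markers CD3E was at 0 in each library, and their summed share, 0.0041% to 0.0603%, followed LYZ, also a Paneth cell gene, which rose by 3.50 under SOX9. Under SOX9 induction 6 of the 12 epithelial markers fell, MUC2 and KRT20 among them, where 1.16% of all genes tested were called lower. Whether this bears on the genes below was not tested.

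The promoters of the 3 members that passed the test under SOX9 induction, LDHA, ENO1 and SLC16A3, are shown first. Those of 2 hypoxia targets, BNIP3 and CA9, follow, which were picked after values were seen. Neither was called under SOX9 induction, where BNIP3 had a positive and CA9 a negative value. Each run is the 250 bases before a RefSeq start site (GRCh38.p14), written 5′ to 3′ on the gene's strand. Capitals mark the hypoxia cores ACGTG and GCGTG and their reverse complements CACGT and CACGC, with overlapping matches merged into 1. Where a gene had several windows, the one with the most cores is printed, so its number of cores is favoured by the choice.
LDHA: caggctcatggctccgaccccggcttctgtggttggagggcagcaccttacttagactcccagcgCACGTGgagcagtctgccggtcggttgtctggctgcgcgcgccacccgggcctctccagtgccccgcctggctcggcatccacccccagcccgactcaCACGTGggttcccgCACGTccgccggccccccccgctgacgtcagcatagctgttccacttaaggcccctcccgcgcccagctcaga
ENO1: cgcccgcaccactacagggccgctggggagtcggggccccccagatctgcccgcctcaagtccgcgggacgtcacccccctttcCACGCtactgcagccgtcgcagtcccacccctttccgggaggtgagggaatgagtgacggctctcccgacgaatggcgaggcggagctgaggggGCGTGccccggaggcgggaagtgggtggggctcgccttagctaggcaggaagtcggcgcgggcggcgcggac
SLC16A3: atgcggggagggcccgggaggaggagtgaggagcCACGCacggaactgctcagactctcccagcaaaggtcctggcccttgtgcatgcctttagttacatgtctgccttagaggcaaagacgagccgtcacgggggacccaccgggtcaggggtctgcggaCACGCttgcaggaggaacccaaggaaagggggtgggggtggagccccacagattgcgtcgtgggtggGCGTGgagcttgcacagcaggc
BNIP3: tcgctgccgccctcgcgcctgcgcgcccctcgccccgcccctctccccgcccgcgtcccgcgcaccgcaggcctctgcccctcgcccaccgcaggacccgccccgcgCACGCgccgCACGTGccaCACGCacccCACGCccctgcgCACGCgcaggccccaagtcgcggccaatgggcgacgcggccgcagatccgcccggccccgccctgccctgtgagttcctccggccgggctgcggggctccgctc
CA9: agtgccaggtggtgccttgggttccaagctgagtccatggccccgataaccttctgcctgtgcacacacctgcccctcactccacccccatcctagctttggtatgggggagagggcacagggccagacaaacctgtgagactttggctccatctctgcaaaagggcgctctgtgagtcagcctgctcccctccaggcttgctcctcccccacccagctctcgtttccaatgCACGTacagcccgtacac

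The LDHA window, chr11:18394313-18394562 on the + strand, held 3 cores, which began 185, 87 and 73 bases before the start. The ENO1 window, chr1:8878687-8878936 on the - strand, held 2 cores, at 166 and 72 bases. For SLC16A3, 3 of 5 windows held a core, and the window printed, chr17:82234649-82234898 on the + strand, held 3, at 216, 89 and 22 bases. That window is the fourth of the 5 and lies inside the gene, which the annotation places at chr17:82228397-82261129. The ENO1 window also lies inside its annotated gene (chr1:8861000-8879190), and the BNIP3 window overlaps the annotated 5′ end of its gene, at 131982013. BNIP3 (chr10:131981924-131982173, - strand) held 5 cores within a short stretch, and CA9 (chr9:35673678-35673927, + strand) held 1 core, 18 bases before its start.

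Of the 40 members, 35 had 63 such windows in the RefSeq table. A hypoxia core stood in 58.7% of the member windows, against 43.2% of all 35116 windows. Among the 8 windows of the hypoxia targets 87.5% held one, and among the 34 windows of the glycolytic enzymes 50%. These shares count windows, not genes: HK1 and PFKM had 7 windows each, of which 1 held a core. By gene the lists were alike. Only PGAM1 and PKM among the enzymes, and P4HA2 among the targets with a window, had no core in any window. A SOX core, ACAAT or ACAAAG read on both strands, stood in 19% of member windows and in 33.7% of all windows. LDHA, ENO1, BNIP3 and CA9 had no SOX core in any window, and SLC16A3 had 1 in each of 2 windows not printed. These matches describe letters only.

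In CPM per kilobase of counted exon length, the scale used here to compare genes, the glycolytic enzymes led the members. The counted length covers all annotated exons of a gene, not the transcript expressed, so the order also depends on annotation. PKM, with 8571 counted bases, averaged 2217 CPM, and TPI1, with 2700, averaged 818.8 CPM, yet TPI1 stands higher per kilobase. GAPDH, which oxidises glyceraldehyde phosphate, averaged 1188 over the 12 libraries, with a range of 1062 to 1301. ENO1, the main enolase, averaged 459, TPI1, the triose phosphate isomerase, 303.3, and PKM, the pyruvate kinase, 259. LDHA, the A subunit of lactate dehydrogenase, averaged 204.5 CPM per kilobase, PGAM1 139.7 and PGK1 108.6. Over the 12 libraries the ranges of these 7 neighbours in the order did not overlap. Next came the lactate transporter SLC16A1 (range 67.0 to 73.1) and GPI (range 59.9 to 71.3), whose ranges overlapped.

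Isoforms of 1 step differed in level on the same scale, with the same limit. PFKL, the liver-type phosphofructokinase, averaged 50.4 CPM per kilobase, against 17.5 for PFKM and 16.3 for PFKP, and the ranges of the latter pair overlapped. HK2 averaged 30.2 and HK1 19.1, with no overlap. ENO2 averaged 13.1, far below ENO1. The glucose transporter SLC2A1 averaged 25.1, whereas SLC2A3, its high-affinity relative, had a count of 0 in 10 of the 12 libraries and never more than 2, so it was not tested. SLC16A1 stood above SLC16A3, the lactate exporter typical of glycolytic cells, at 69.1 against 16.01. HIF1A averaged 24.2 CPM per kilobase, with a range of 21.8 to 25.9, and EPAS1, another alpha subunit, 1.24. Most hypoxia targets were low on this scale, some with long counted lengths, such as NDRG1 with 12002 bases. CA9, a cell-surface carbonic anhydrase, averaged 5.85, NDRG1 2.68, ADM, the peptide hormone adrenomedullin, 2.22, and ANKRD37 0.474.

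**Figure D1:**
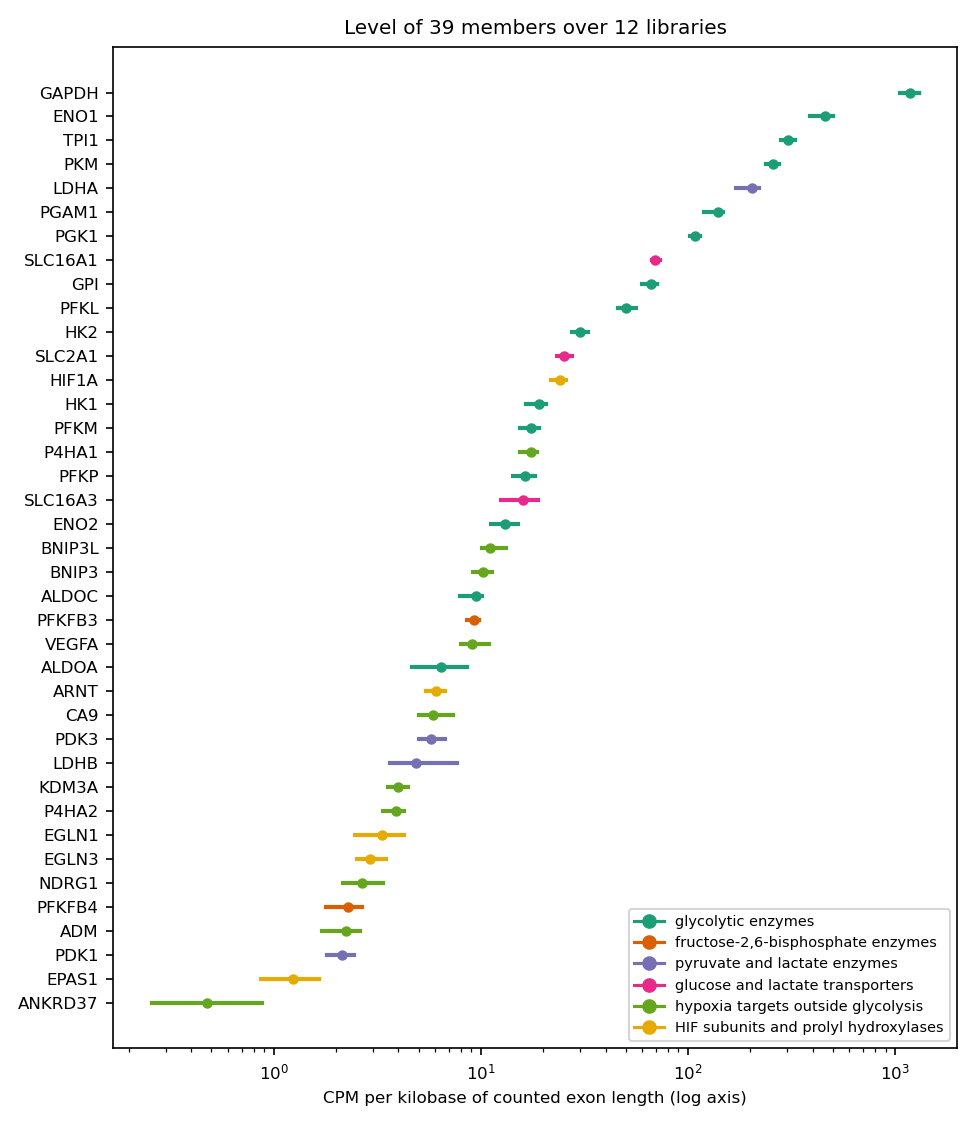
Mean (point) and range (bar) over 12 libraries of each tested member, in CPM per kilobase of counted exon length on a log axis, coloured by role. Leaving out ALDOA, whose coding bases are mostly shared with another gene, the glycolytic enzymes spread from GAPDH at 1188 down to ALDOC at 9.48, and ANKRD37 was lowest at 0.474.

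ALDOA and LDHB cannot be placed in this order. Another annotated gene covers 93.8% of the coding bases of ALDOA and 93.5% of those of LDHB, and the counting did not assign reads that overlap 2 genes, so the 6.39 and 4.87 CPM per kilobase are what was left to count. Shared coding bases also touched ANKRD37 (42.6%), CA9 (39.1%, with ARHGEF39 on the opposite strand), EGLN1 (30.3%) and GAPDH (21.5%). GAPDH has 65 named pseudogenes in the table, BNIP3 44 and PGAM1 13, and reads matching several places were not counted.

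Under SOX9 induction 3 members fell and none rose among the 39 tested, against 2.97% of all genes tested called in either direction and 1.16% called lower. The 3 were LDHA, ENO1 and SLC16A3, that is, a lactate-forming enzyme, a glycolytic enzyme and a lactate exporter. At an unadjusted p under 0.05 there were 15 members (38.5%), 4 higher and 11 lower, against 13.8% of all genes and 20.1% of genes with a mean of at least 32 CPM. Over the 39 members the median log2 fold change was -0.098, with 28 negative, while over all genes tested it was 0.0059. Members are well expressed, and the 6480 genes with a mean of at least 32 CPM had a median of -0.0263.

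LDHA stood at 1332 and 1277 CPM in the uninduced SOX9 libraries and at 1087 and 1028 CPM in the induced ones. It was 1286 and 1275 CPM without and 1233 and 1297 CPM with doxycycline in the GFP line, and 1292, 1287 and then 1222, 1207 CPM in the M303 line. The 2 induced SOX9 libraries were therefore the lowest of the 12, and in the M303 line the groups did not overlap either. Under SOX9 induction LDHA fell by 0.30 on the log2 scale (SE 0.0633, adjusted p = 0.00797, edgeR). Its change was -0.09 (SE 0.0633) in the M303 line and -0.02 (SE 0.0633) in the GFP line, and neither was called. The SOX9 call was lost without uninduced library 1 (adjusted p = 0.0509) and without induced library 2 (adjusted p = 0.217).

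ENO1, which makes phosphoenolpyruvate, stood at 2360 and 2607 CPM in the uninduced and 2075 and 2030 CPM in the induced SOX9 libraries. The GFP line had 2611 and 2514 CPM without and 2564 and 2347 CPM with doxycycline, and the M303 line 2468 and 2346 CPM and then 2308 and 2503 CPM. Again the 2 induced SOX9 libraries were the lowest. The fall was 0.27 on the log2 scale (SE 0.0700, adjusted p = 0.0333, edgeR), against changes of -0.0006 in the M303 line and -0.06 in the GFP line. The call was lost without uninduced library 2 (adjusted p = 0.317) and without induced library 1 (0.175) or 2 (0.303).

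SLC16A3 stood at 141.8 and 156.8 CPM in the uninduced and 112.2 and 117.0 CPM in the induced SOX9 libraries. It was 168.9 and 137.9 CPM without and 158.2 and 146.1 CPM with doxycycline in the GFP line, and 159.1, 150.4 and then 136.7, 140.7 CPM in the M303 line. The induced SOX9 libraries were the lowest of all 12, and in the M303 line the groups did not overlap either. Its fall under SOX9 was 0.38 on the log2 scale (SE 0.0895, adjusted p = 0.0192, edgeR). The changes were -0.16 (SE 0.0893) in the M303 line and -0.01 (SE 0.0893) in the GFP line. The SOX9 call was lost without uninduced library 2 (adjusted p = 0.182) and without induced library 1 (0.19) or 2 (0.0887).

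**Figure D2:**
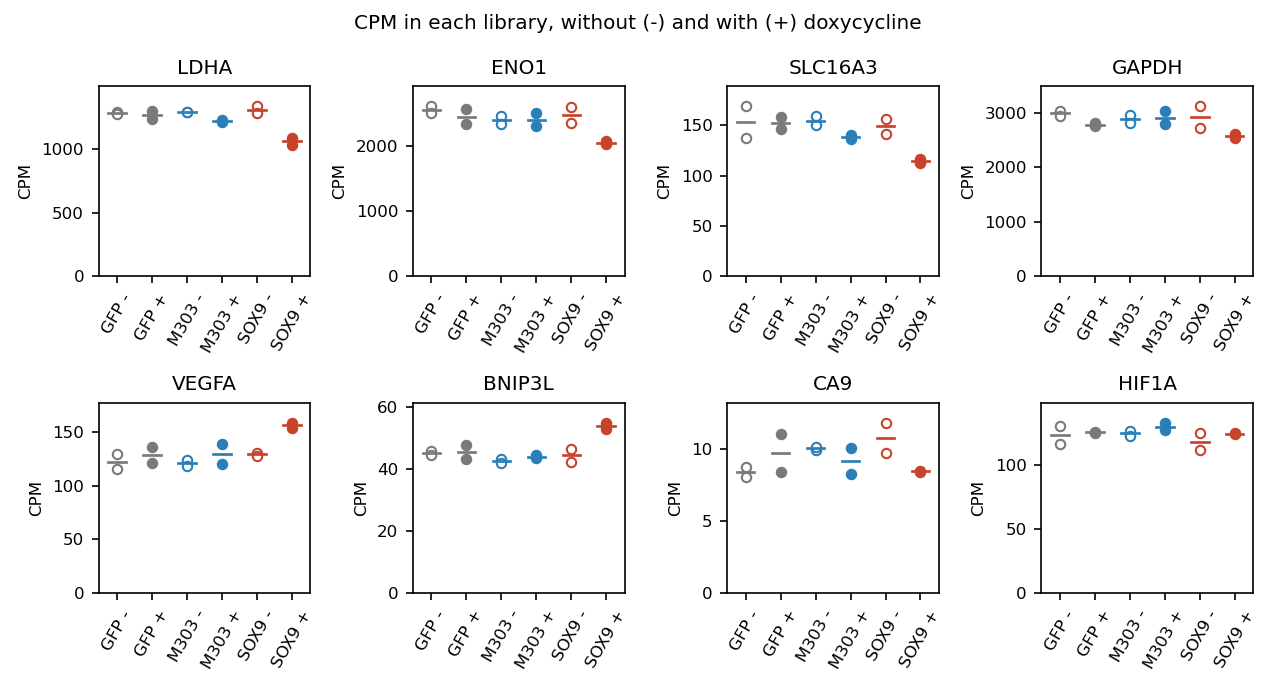
CPM of 8 members in each of the 12 libraries (points), with the group mean (line), open without and filled with doxycycline. LDHA, ENO1 and SLC16A3 were lowest in the 2 induced SOX9 libraries, and VEGFA and BNIP3L were highest there.

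The glycolytic enzymes as a list had a median log2 fold change of -0.165 under SOX9 induction, with 14 of 15 negative, 8 (53.3%) below an unadjusted p of 0.05 and 1 called. Over all genes tested 49.1% were negative, 13.8% were below that p and 2.97% were called. Among genes with a mean of at least 32 CPM, 57.6% were negative and 20.1% were below that p. In 10 of the 15, and in none in the other direction, both induced libraries lay below both uninduced ones, where 21.5% of all genes did so and 23.2% lay above. The same share in the M303 line was 16.8% lower and 17% higher, with 2 of the 15 enzymes lower and 2 higher. In the GFP line it was 13.8% lower and 13.5% higher, with 3 enzymes lower and 2 higher. GAPDH stood at 2720 and 3117 CPM without and 2610 and 2544 CPM with induction in the SOX9 line, a change of -0.18 (SE 0.0701, adjusted p = 0.228) with no overlap. Without uninduced library 1 it was -0.28 (adjusted p = 0.0437, edgeR), and without uninduced library 2 it was -0.08. GAPDH was 3041, 2946 and then 2810, 2755 CPM in the GFP line, also lower without overlap. In the M303 line it was 2963, 2819 and then 2788, 3031 CPM, and the groups overlapped. PGK1, which makes the first ATP of glycolysis, stood at 612.0 and 601.4 CPM and then 557.9 and 572.9 CPM in the SOX9 line, a change of -0.10 (SE 0.0665, adjusted p = 0.568). In the other lines PGK1 lay between 562.4 and 618.9 CPM, and its groups in the SOX9 line did not overlap.

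Other enzymes below an unadjusted p of 0.05 but not called were PFKM (-0.26, adjusted p = 0.0786), PGAM1 (-0.21, adjusted p = 0.106), ALDOA (-0.52, adjusted p = 0.143), PFKP (-0.26, adjusted p = 0.145), HK1 (-0.23, adjusted p = 0.159) and GPI (-0.17, adjusted p = 0.216). ALDOA stood at 21.27 and 32.65 CPM without and 17.8 and 19.91 CPM with SOX9 induction, and its value ranged from -0.80 without uninduced library 1 (adjusted p = 0.00332, edgeR) to -0.18 without uninduced library 2. TPI1 (-0.14), ALDOC (-0.05), PFKL (-0.05), HK2 (-0.04) and PKM (-0.01) were further from the threshold, and ENO2 was the 1 enzyme with a positive value, at 0.08. PFKFB4 and PFKFB3 had values of -0.37 (adjusted p = 0.228) and -0.10 (adjusted p = 0.725). The 15 enzymes took 1.11% of all counts (SD 0.0608, n = 2) in the uninduced SOX9 libraries and 1.03% (SD 0.00988, n = 2) in the induced ones. In the other 4 groups the mean share lay between 1.10% and 1.13%.

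**Figure D3:**
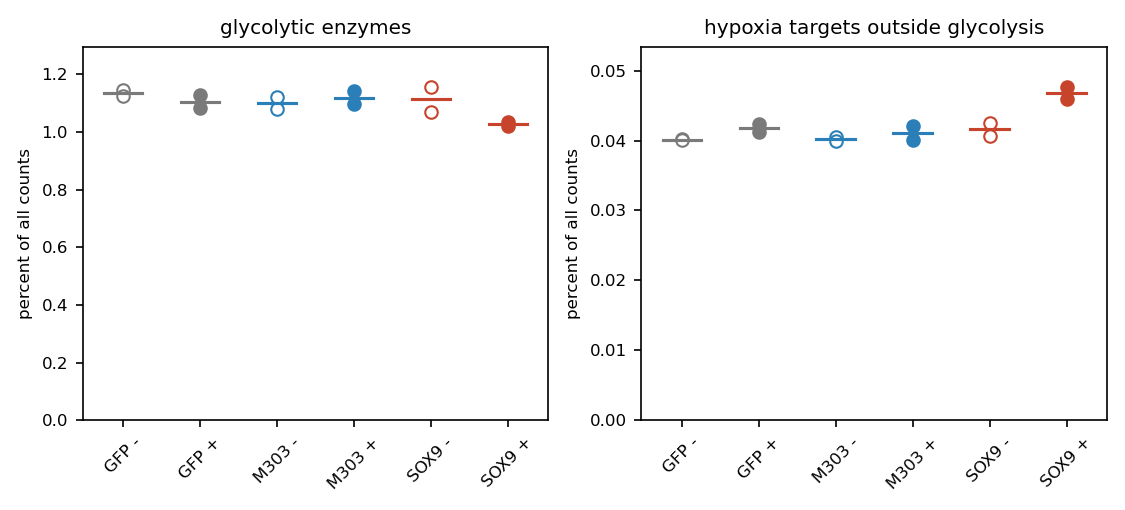
Percent of all counts taken by the 15 glycolytic enzymes and by the 10 hypoxia targets, per library (points) with the group mean (line), axes from 0. The enzymes had their lowest shares, 1.019% and 1.033%, and the targets their highest, 0.04595% and 0.04765%, in the induced SOX9 libraries. The target share leans on VEGFA, the most abundant target, with means of 129.0 CPM without and 155.9 CPM with SOX9 induction. Of the 10 targets, 5 had positive and 5 negative changes, and none was called.

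The 2 uninduced SOX9 libraries differed along the GC content of transcripts (r = 0.559 across 6463 genes, a description, since genes are not replicates). Other pairs did too: r was -0.515 and -0.24 for the uninduced and induced GFP libraries and -0.398 and 0.374 for those of M303. For the induced SOX9 pair it was 0.044. The log2 fold change itself correlated with GC content at -0.214 for SOX9, 0.046 for M303 and -0.077 for GFP induction (6480 genes). Enzyme transcripts had a median GC content of 53.3%, against 48% for genes of at least 32 CPM. In the uninduced SOX9 pair 12 of the 15 enzymes were higher in library 2 than in library 1. That number was 6 in the induced SOX9 pair, 2 and 3 in the uninduced and induced GFP pairs, and 5 and 9 in those of M303. With an offset for GC content, chosen after the data were seen, the enzyme median was -0.145. The median ranged from -0.216 without uninduced library 1 to -0.116 without uninduced library 2.

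The hypoxia targets outside glycolysis had a median of 0.0343 under SOX9 induction, with 5 positive and 5 negative. None of the 10 was called by edgeR or by DESeq2, and 3 were below an unadjusted p of 0.05, all higher. Over all genes 13.8% lay below that p. VEGFA, the vascular growth factor, stood at 130.4 and 127.7 CPM without and 158.3 and 153.5 CPM with SOX9 induction. In the GFP line it was 129.0 and 115.2 CPM and then 121.4 and 135.9 CPM, and in the M303 line 123.6 and 118.0 CPM and then 139.0 and 120.0 CPM. The induced SOX9 libraries were the highest of the 12, yet the change of 0.27 (SE 0.0859, adjusted p = 0.104, edgeR) missed the threshold. BNIP3L, a mitophagy receptor, had a value of 0.28 (adjusted p = 0.116) and KDM3A, a histone demethylase, of 0.20 (adjusted p = 0.334).

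Targets widely used as markers of low oxygen had values of both signs. CA9 stood at 9.684 and 11.79 CPM without and 8.394 and 8.477 CPM with SOX9 induction, a change of -0.35 (SE 0.175, adjusted p = 0.393). It was 8.743, 8.071 and then 8.403, 10.99 CPM in the GFP line, and 9.924, 10.15 and then 10.04, 8.245 CPM in the M303 line. So the groups of the SOX9 line did not overlap, but its induced libraries lay within the range of the other lines. NDRG1 stood at 31.27 and 34.39 CPM and then 29.44 and 25.87 CPM in the SOX9 line, a change of -0.24 (SE 0.127, adjusted p = 0.409). NDRG1 lay between 29.01 and 40.22 CPM in the other lines, and its groups in the SOX9 line did not overlap. ADM stood at 4.334 and 4.053 CPM and then 3.974 and 4.27 CPM, a change of -0.03 (SE 0.208, adjusted p = 0.979), and was between 4.493 and 6.078 CPM in the other lines. For ADM the groups of the SOX9 line overlapped, and all 4 of its libraries lay below the 8 of the other lines. BNIP3, whose promoter held the 5 cores shown above, had a value of 0.10 (adjusted p = 0.675). The collagen prolyl hydroxylases P4HA1 and P4HA2 had -0.02 and 0.09, and ANKRD37, at about 1 CPM, had -0.15 with a 95% interval from -1.12 to 0.82.

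**Figure D4:**
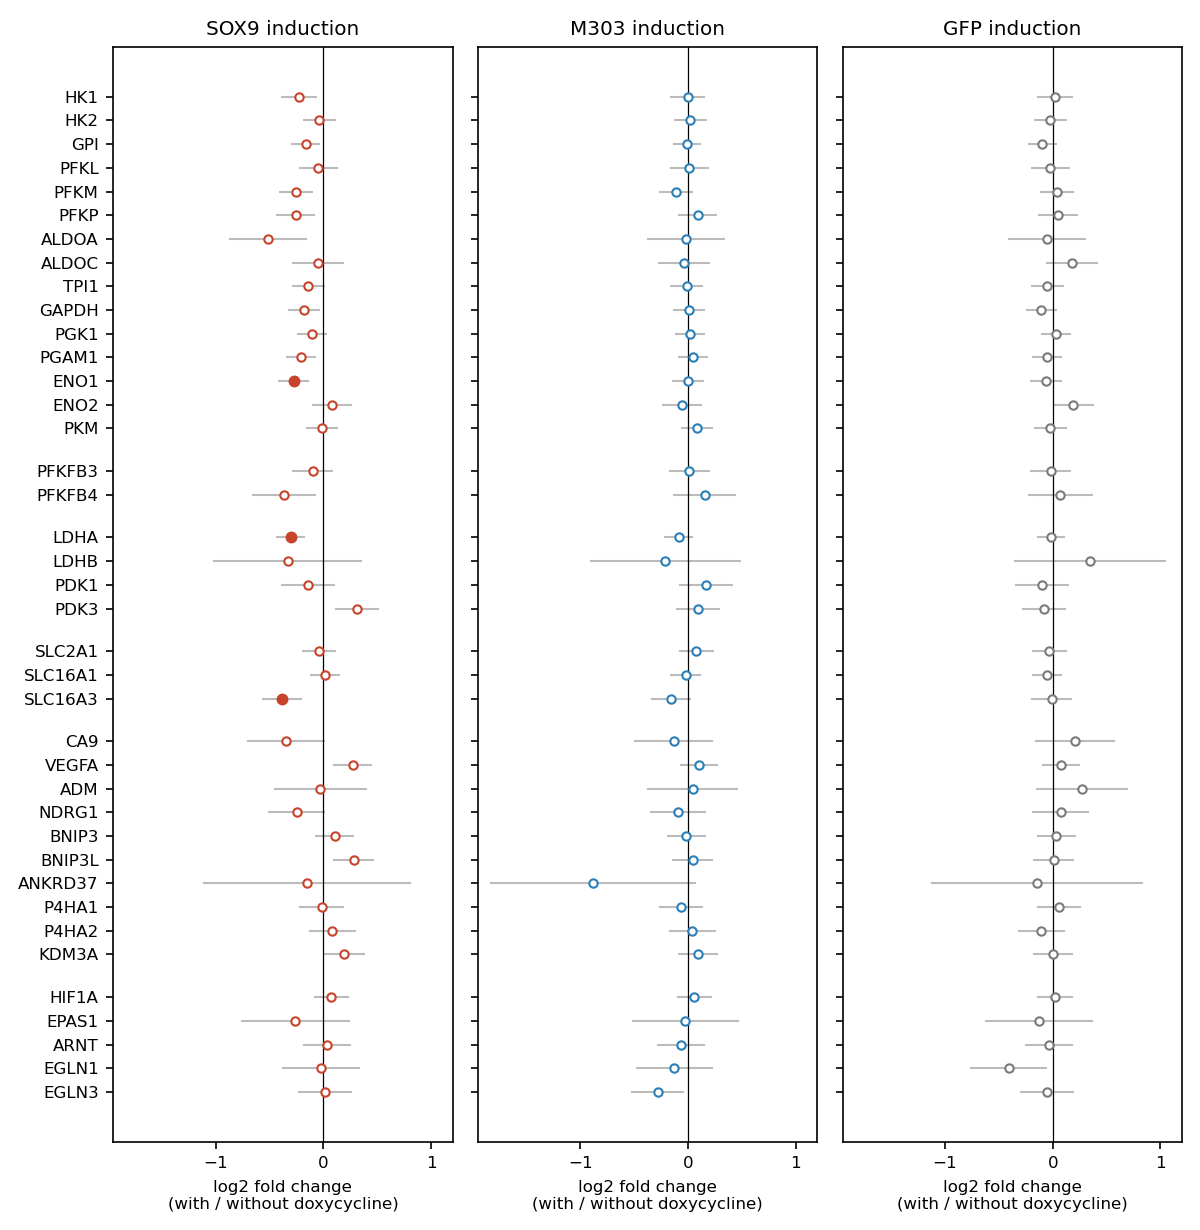
Log2 fold change (point) and 95% interval (line) of the 39 tested members in each induction, grouped by role from the enzymes at the top to the HIF genes at the bottom. Filled points passed the test: LDHA, ENO1 and SLC16A3 in the SOX9 line, and none in the M303 and GFP lines.

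Among the other enzymes and transporters, PDK3 and PDK1, kinases that hold pyruvate back from oxidation in the mitochondrion, had opposite signs. PDK3 had a value of 0.31 (adjusted p = 0.105). PDK1 stood at 35.9 and 29.07 CPM and then 31.18 and 27.57 CPM in the SOX9 line, a change of -0.14 (SE 0.119, adjusted p = 0.681), and between 26.74 and 36.03 CPM in the other lines, so its groups overlapped. LDHB had a value of -0.33 with a 95% interval from -1.02 to 0.36. The glucose transporter SLC2A1 stood at 154.5 and 170.4 CPM and then 153.7 and 162.4 CPM, a change of -0.04 (SE 0.0770, adjusted p = 0.893). In the other lines SLC2A1 lay between 155.8 and 181.8 CPM, and its groups in the SOX9 line overlapped. SLC16A1 had a value of 0.01 (95% interval -0.13 to 0.15).

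Among the HIF subunits and prolyl hydroxylases, no gene passed the test under SOX9 induction, and none was below an unadjusted p of 0.05. HIF1A stood at 125.0 and 112.2 CPM without and 125.6 and 124.3 CPM with induction, a change of 0.08 (SE 0.0794, adjusted p = 0.775, 95% interval -0.09 to 0.24). It lay between 116.6 and 133.3 CPM in the other lines, and its groups in the SOX9 line overlapped. HIF is regulated mainly through protein stability, which these counts do not measure. EGLN3, a prolyl hydroxylase that is itself a HIF target, stood at 22.26 and 20.32 CPM and then 21.25 and 21.79 CPM, overlapping groups with a change of 0.02 (SE 0.119, adjusted p = 0.979). EPAS1, ARNT and EGLN1 had values of -0.26, 0.03 and -0.02.

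In the M303 line no member was called, where 0.00549% of all genes were, and in the GFP line none, where 0% were. The 1 gene called in the M303 line was SOX9, whose counts include the construct. DESeq2 also called none in either line. At an unadjusted p under 0.05, where 3.63% of all genes lay in the M303 line and 3.18% in the GFP line, the M303 line had 1 member, EGLN3, at -0.28 (25.65 and 21.16 CPM without, 18.52 and 19.94 CPM with doxycycline). The GFP line had 2, ENO2 at 0.19 and EGLN1 at -0.41, and EGLN3 in that line stood at 21.76 and 21.80 CPM and then 21.19 and 20.67 CPM. The enzyme medians were -0.0006 in the M303 line and -0.0209 in the GFP line, and those of the hypoxia targets 0.0126 and 0.0464. Of the 39 members, 6 lay higher and 16 lower without overlap under SOX9, 8 and 6 under M303, and 3 and 7 under GFP. Over all genes the shares higher and lower were 23.2% and 21.5%, 17% and 16.8%, and 13.5% and 13.8%. The 95% interval lay within a 1.5-fold change both ways for 33 members under SOX9, 37 under M303 and 34 under GFP. That share was not computed over all genes.

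The differences between inductions tested whether SOX9 acted on these genes differently from M303 or from GFP. No member was called between SOX9 and M303, where 0.489% of genes were, between SOX9 and GFP (0.895%) or between M303 and GFP (0.00549%), by edgeR. At an unadjusted p under 0.05 there were 5, 10 and 0 members (12.8%, 25.6% and 0%), against 6.99%, 9.01% and 3.94% of all genes. LDHA had the smallest adjusted p between SOX9 and GFP, 0.22, for a difference of -0.29 (SE 0.0895). DESeq2 called LDHA there, at an adjusted p of 0.0287, and no other member in these 3 differences. Passing the test under SOX9 and not elsewhere is therefore not shown to be a difference between the constructs. The enzyme median of the difference was -0.147 against M303 and -0.128 against GFP, and these values share the SOX9 libraries.

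For the doxycycline difference averaged over the 3 lines, edgeR called no member, where 1.02% of genes were called. That average includes the SOX9 and M303 inductions, so it is not the effect of the drug alone. Of the members, 8 (20.5%) were below an unadjusted p of 0.05, against 9.58% of all genes. LDHA had -0.14 (adjusted p = 0.0982) and SLC16A3 -0.18 (adjusted p = 0.122), and DESeq2 called LDHA. Before induction the lines gave no called member: SOX9 against GFP (0% of genes called), M303 against GFP (0.00549%) and SOX9 against M303 (0%). At an unadjusted p under 0.05 there was 1 member in each, where 4.75%, 6.09% and 2.79% of all genes lay, namely ENO2 at 0.22, ENO2 at 0.20 and ADM at -0.44, and DESeq2 called none.

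Related genes outside the 40 gave a mixed picture under SOX9 induction. Among 32 other glycolysis and pyruvate genes tested, those called included TXNIP and HKDC1. TXNIP, an inhibitor of glucose uptake, rose by 0.39 (adjusted p = 0.012), and the hexokinase relative HKDC1 fell by 0.64 (adjusted p = 0.00053). HKDC1 also differed from GFP, at -0.66 (adjusted p = 0.0231).

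Of 37 other hypoxia targets and regulators tested, 2 rose and 2 fell under SOX9, where 2.97% of all genes tested were called. RORA rose by 0.75 (adjusted p = 0.0219) and IGFBP3, which binds insulin-like growth factors, by 0.56 (adjusted p = 0.00149). IGFBP3 also differed from its response to M303, by 0.63 (adjusted p = 0.0428). BHLHE40, a transcriptional repressor, fell by 0.56 (adjusted p = 0.00756) and CA12, a carbonic anhydrase like CA9, by 0.35 (adjusted p = 0.0102). No gene of the pentose phosphate pathway (7 tested) or the TCA cycle (16 tested) was called by edgeR, and DESeq2 called 0 and 1. Below an unadjusted p of 0.05 lay 2 and 4, all lower, against 13.8% of all genes. For the 13 genes of the mitochondrial genome the median was -0.20 under SOX9 and -0.26 under GFP. edgeR called 0 of them in either line, and DESeq2 called 0 and 1. Below an unadjusted p of 0.05 lay 7 and 9, against 13.8% and 3.18% of all genes. In the mean over the 3 lines 4 of the 13 fell, where 1.02% of all genes were called.

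How far the 3 calls depend on the analysis is shown by the plot of their estimates under each setting. Some of the 22 alternatives run left out only a GFP or M303 library, so every library of the SOX9 line was kept. Estimates of all 3 genes were negative under each of the 22. LDHA was called in 19 of them, SLC16A3 in 19 and ENO1 in 17.

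**Figure D5:**
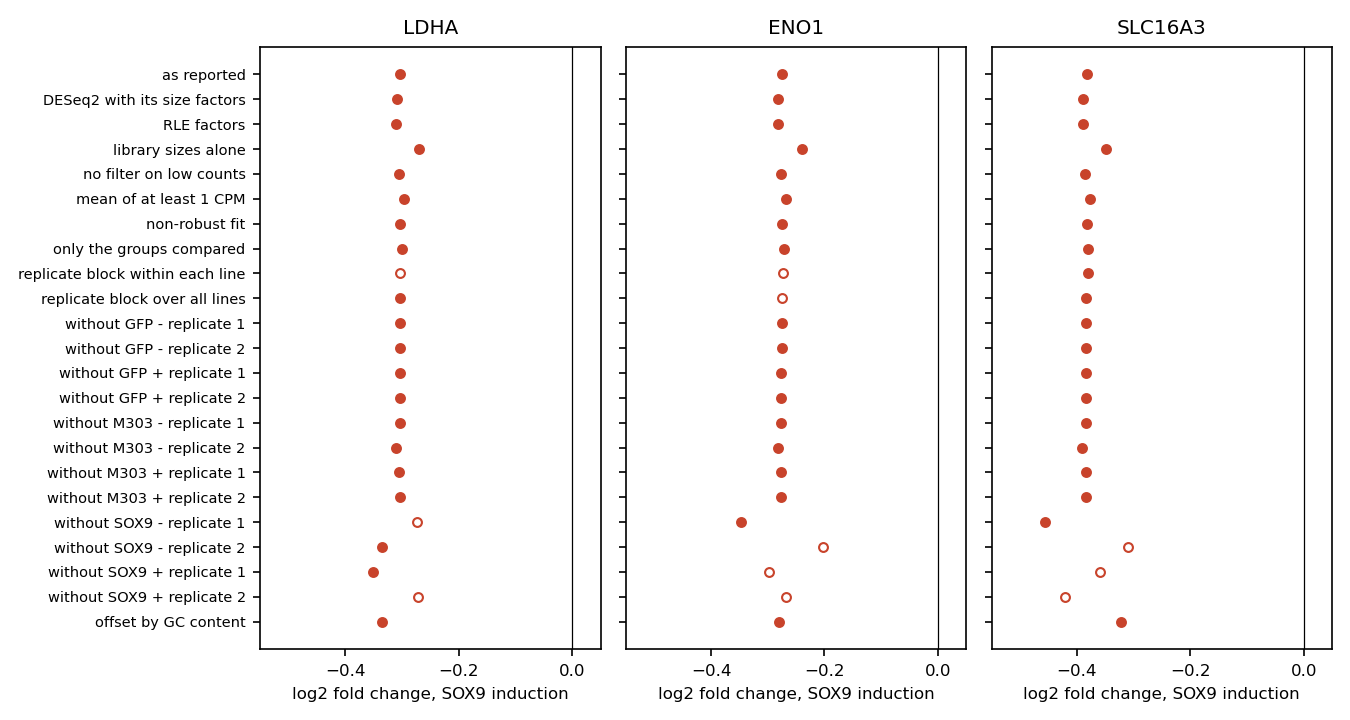
Log2 fold change of LDHA, ENO1 and SLC16A3 under SOX9 induction as reported and under 22 alternative settings, filled where the adjusted p was under 0.05. All estimates lie below 0, and most open points are settings that leave out a library of the SOX9 line.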

How the data were processed

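The deposited values are raw read counts per gene. Per the submitters' processing notes the authors aligned reads to hg38 with STAR 2.7.0a, and per the file headers they counted with featureCounts 2.0.1 on Ensembl release 101. The recorded command gives no paired-end, strand or multi-mapping option, so mates were counted singly and without strand, and reads of several places or 2 genes were dropped. The test was that of edgeR 4.0.16 under R 4.3.3 (TMM factors 0.981 to 1.017, filterByExpr, robust quasi-likelihood F-test, 12 libraries, 6 group means, Benjamini-Hochberg over 18219 genes, called at adjusted p under 0.05), in 10 comparisons. Alternatives included DESeq2 1.42.0, other scalings and filters, each library left out and an offset for GC content. CPM used TMM-scaled totals. The script was tested on simulated data. The members, gene lists, the named genes (called members, a fixed set of 12 and called genes of the related lists) and the tests were chosen with earlier results of these data known. BNIP3 and CA9 promoters were added after values were seen. Promoters are from RefSeq, and windows for SLC2A3, SLC16A1, VEGFA, NDRG1 and BNIP3L were not used here. No pair of libraries agreed within counting noise. Of the related glycolysis genes, 1 is not reported here.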

Additional observations from a re-analysis of the deposited data

How the results depend on the processing

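The number of members called under SOX9 induction, 3 as reported, was 6 with DESeq2, 5 with no filter on low counts, 1 with a replicate block within each line and 6 with the offset for GC content, an alternative chosen after the data were seen. All genes called moved too, from 541 as reported to 757 with DESeq2, 750 with no filter, 446 with that block and 830 with the GC offset. Leaving out 1 library gave 0 (without induced SOX9 library 2) to 4 (without uninduced SOX9 library 1). Between SOX9 and GFP, 0 became 1 with DESeq2 and with the GC offset, and 0 to 1 when a library was left out. For the mean doxycycline difference, 0 became 1 with DESeq2 and with no filter, 2 with the GC offset, and 0 to 1 when a library was left out. DESeq2 added GPI, PFKM and PGAM1 to the 3 calls, the GC offset added PFKM, PGAM1 and VEGFA (higher, adjusted p = 0.0395), and no filter added ALDOA and PDK3. The cause was not tested. The other 7 comparisons had 0 called members under every alternative run.

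The labels do not say whether replicate numbers pair the samples. Deviations of same-numbered libraries correlated across genes at -0.086 (GFP), -0.098 (M303) and 0.096 (SOX9) within a line, and at -0.352 to 0.282 between lines. Each group gives only 1 such difference, so these values cannot decide whether same-numbered libraries were paired. With a replicate block within each line LDHA had an adjusted p of 0.0521 and ENO1 of 0.119, and with a replicate block over all lines ENO1 had 0.0717. All genes called under SOX9 numbered 541, with 330 higher and 211 lower. They numbered 830 (417 higher, 413 lower) with the GC offset, 231 without induced library 2, 270 without induced library 1 and 301 without uninduced library 2. The split was 252 higher and 275 lower without uninduced library 1. Over all alternatives genes called ranged from 1 to 9 for M303, 0 to 9 for GFP, 57 to 147 between SOX9 and M303, 95 to 270 between SOX9 and GFP, 1 to 12 between M303 and GFP and 115 to 296 for the mean difference, and between uninduced lines from 0 to 39 (SOX9 against GFP), 0 to 56 (M303 against GFP) and 0 to 1 (SOX9 against M303). With 2 libraries a group, a missed call does not show that a gene was unaffected. The settings with only the groups compared gave no value for the mean difference, and the block within each line none for uninduced lines.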
